A study of Mus musculus with 10 samples.

Results

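Hepatokines and angiopoietin-like proteins are proteins that the liver releases into the blood to act on other organs. The 9 genes described here, Ahsg, Fetub, Angptl4, Angptl6, Angptl8, Fgf21, Inhbe, Selenop and Lect2, were taken by name from the 55401 genes counted, and their RNA levels were compared between livers of 5 wild-type (WT) and 5 Thrb hep-/- C57Bl6/J mice, with 1 RNA-seq library per mouse. The mutants carry a deletion of the gene of thyroid hormone receptor beta that is targeted to the liver, through a cross of a Thrb-loxP line with Afp-Cre, whose promoter is active in the hepatoblast lineage. WT mice were littermates of the mutants. Mice were kept on a standard chow diet and a 12-h light and dark cycle, and the sex, age and hour of collection of these 10 mice are not given in the sources used here. All 9 genes passed the filter on low counts.

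Thyroid hormone receptor beta is a nuclear receptor that binds DNA at its target genes and switches them on or off according to the thyroid hormone bound to it. Among the secreted proteins, the fetuins belong to the cystatin superfamily, ANGPTL4 and ANGPTL8 restrain lipoprotein lipase and so direct circulating fat between tissues, and FGF21 is an endocrine growth factor that acts through beta-Klotho. In liver, Angptl4 and Fgf21 are known as fasting-responsive genes under the fatty acid receptor PPARA, Angptl8 as a gene switched on by feeding and insulin, and Fgf21 and Inhbe also as genes of the ATF4 response to amino acid shortage and stress.

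The promoters of 8 of the 9 genes, all but Angptl4, were found in the RefSeq table of build GRCm38.p6, and the 250 bases before each listed start were searched on both strands. The letters TTGCATCA, the core bound by ATF4 with a C/EBP partner (CARE), were present in the promoters of Fgf21, Inhbe and Angptl8 and in 260 of all 32851 promoters (0.791%). Only these 3 promoters are shown, chosen because they hold the match. Capitals mark it, on the strand of the gene for Fgf21 and Inhbe and on the opposite strand for Angptl8. The match began 139 bases before the start of Fgf21 (chr7:45615491-45615740, minus strand) and 130 before that of Angptl8 (chr9:21835260-21835509, plus strand). For Inhbe it began 181 bases before the RefSeq start (chr10:127351849-127352098, minus strand). That window lies inside the longer GENCODE span of Inhbe given below, so the 2 annotations place the start of this gene differently.
Fgf21: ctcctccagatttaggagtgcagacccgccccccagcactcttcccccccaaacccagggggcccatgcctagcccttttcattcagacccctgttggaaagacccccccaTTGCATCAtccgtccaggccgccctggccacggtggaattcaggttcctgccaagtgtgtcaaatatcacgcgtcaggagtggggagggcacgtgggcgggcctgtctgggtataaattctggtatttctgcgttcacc
Inhbe: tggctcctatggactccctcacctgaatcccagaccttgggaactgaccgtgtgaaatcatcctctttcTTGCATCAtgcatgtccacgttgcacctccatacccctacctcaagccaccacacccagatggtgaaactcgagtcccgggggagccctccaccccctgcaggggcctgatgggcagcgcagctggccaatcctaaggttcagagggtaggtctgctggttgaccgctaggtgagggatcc
Angptl8: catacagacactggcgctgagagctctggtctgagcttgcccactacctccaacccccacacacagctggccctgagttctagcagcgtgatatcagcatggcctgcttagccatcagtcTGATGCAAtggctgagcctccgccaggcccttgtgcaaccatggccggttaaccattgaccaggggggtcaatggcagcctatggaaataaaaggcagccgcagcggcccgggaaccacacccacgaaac
The nuclear receptor half-site AGGTCA was in none of the promoters of the 8 genes and in 14% of all promoters. Its exact direct repeats with a spacing of 1 base (DR1) and of 4 bases (DR4, the arrangement preferred by thyroid hormone receptors), each of which contains the half-site, were in 0.0335% and 0.0152% of all promoters and in none of the 8. A match is a description of the letters only, and no match says only that these letters are not in this window.

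The targeted gene was lower in the mutants. Normalized CPM (counts scaled to the library size with TMM factors) of Thrb were 33.3 ± 0.643 in WT and 26.7 ± 1.93 in Thrb hep-/- livers (SD, n = 5 each), a log2 fold change of -0.32 (adjusted p = 0.036 by edgeR), and the genotypes did not overlap. Most Thrb RNA was thus still counted in the mutants, and a total over the exons cannot tell which of them it came from. Library totals lay between 26477195 and 28590704 counts, so that 3 counts were worth between 0.0993 and 0.117 normalized CPM. Hepatocyte marker genes summed to between 84126 and 123237 CPM in WT and between 99391 and 113314 CPM in Thrb hep-/- livers. The adipocyte genes Adipoq and Plin1 were at 0 in every WT library, while the libraries of Thrb hep-/- mice 1, 4 and 5 held 97, 215 and 146 counts of Adipoq and 144, 182 and 197 counts of Plin1. All p-values measure the spread between these 10 mice.

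None of the 9 genes changed past the adjusted p of 0.15 that the study used (edgeR), where 499 of the 12234 genes tested (4.08%) did, 1.51% of them all being higher and 2.57% lower; the share past 0.05 was 1.35%. At an unadjusted p under 0.05, 3 of the 9 were called, Angptl4, Angptl6 and Fgf21, all with higher means in Thrb hep-/- livers, beside 13.6% of all genes in either direction 6.15% higher and 7.41% lower. DESeq2 called 2 of the 9 at 0.15, beside 885 of all 12234 genes, and limma-voom called 1, beside 849 of all 12234. No gene of the 9 had genotypes that did not overlap, as 3.64% of all genes had. The median log2 fold change of the 9 was 0.045, beside 0.00054 over all genes tested, and 5 of them were fitted higher and 4 lower.

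**Figure D1:**
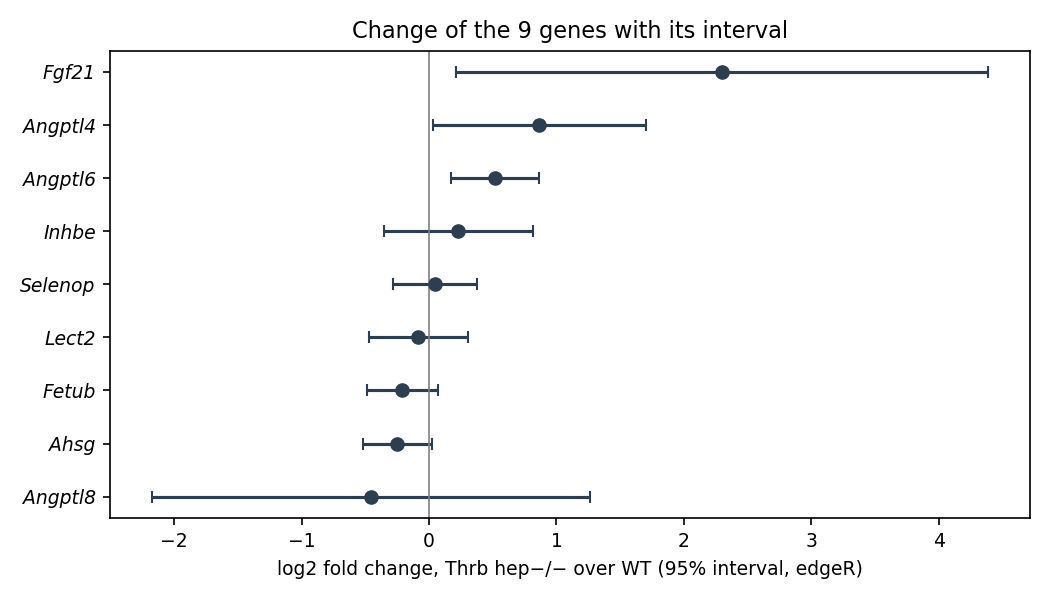
Log2 fold change of each of the 9 genes, Thrb hep-/- over WT (x axis), with its 95% interval derived from the edgeR F-test (bars, 5 mice per genotype). The intervals of Angptl4, Angptl6 and Fgf21 lie above 0, and those of Fgf21 and Angptl8 are the widest.

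Compared per length of exon, in normalized CPM per kilobase, the levels of the 9 genes were widely apart in WT livers. Ahsg stood first at 4443 ± 301, ahead of Selenop at 1560 ± 182 and Fetub at 329 ± 57.6 (SD, n = 5), and no mouse of one overlapped with a mouse of the next. Angptl8 at 88.1 ± 71.1 and Lect2 at 69.0 ± 6.36 followed, with overlapping mice, then Angptl4 at 21.6 ± 11 and Inhbe at 14 ± 3.65, also overlapping. Angptl6 at 2.57 ± 0.43 and Fgf21 at 1.90 ± 0.84 were the lowest and overlapped. In Thrb hep-/- livers the first 3 kept their places, and Lect2, at 65.1 ± 21.7, and Angptl8, at 64.1 ± 68.8, changed places with overlapping mice. Fgf21, at 9.33 ± 14, stood above Angptl6, at 3.69 ± 0.70, through mouse 4 alone, since without it Fgf21 was at 3.13 ± 2.21 and Angptl6 at 3.95 ± 0.45 (SD, n = 4).

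Of the angiopoietin-like genes, Angptl4 encodes a secreted inhibitor of lipoprotein lipase. It lies on chromosome 17 (chr17:33773750-33781830, minus strand, GRCm38). Its normalized CPM were 108, 30.7, 92.6, 112.5 and 39.0 in the WT group and 121.3, 205, 147.8, 110.4 and 112.7 in the mutants, by replicate number. WT mice 2 and 5 were far below all others, Thrb hep-/- mouse 2 was the highest, and the genotypes overlapped only in that Thrb hep-/- mouse 4 was below WT mouse 4. The mean was 76.5 ± 38.9 in WT and 139 ± 39.6 in Thrb hep-/- livers, a log2 fold change of 0.87 (SE 0.37, 95% interval 0.029 to 1.70), with an adjusted p of 0.35 by edgeR. An exact permutation test over all splits of the 10 mice, 1 of 9 such tests, gave a two-sided p of 0.016 for a difference of 1.02 in log2 CPM, against a smallest possible p of 0.0079. Adjusted over the 9 tests by Benjamini-Hochberg, this permutation p was 0.107. Adipocytes also express Angptl4: without the 3 libraries that held adipocyte counts, a choice made after seeing the data, the log2 fold change was 1.21 (adjusted p = 0.43 by edgeR). In a bulk liver, fewer cells of a type and less RNA per cell cannot be told apart.

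Angptl6, a circulating relative known as angiopoietin-related growth factor, lies on chromosome 9 (chr9:20873808-20879727, minus strand). Its CPM were 3.52, 3.50, 5.15, 4.26 and 3.93 in the WT group and 5.91, 7.31, 5.90, 4.20 and 5.87 in the mutants, by replicate number. All Thrb hep-/- mice but mouse 4 were above every WT mouse. The mean was 4.07 ± 0.68 in WT and 5.84 ± 1.10 in Thrb hep-/- livers (log2 fold change 0.52, SE 0.16, 95% interval 0.17 to 0.87), and of the 9 genes this one came nearest to the threshold, with an adjusted p of 0.157 by edgeR. Its adjusted p fell on the other side of 0.15 under DESeq2, where it was 0.058, and under limma-voom, where it was 0.121. The exact permutation p was 0.024, or 0.107 when adjusted over the 9 genes by Benjamini-Hochberg. Of its exon bases, 16.8% are shared with A230050P20Rik on the opposite strand, and reads there were counted for neither gene; that neighbour was more abundant, at 69.1 and 63.8 CPM in WT and Thrb hep-/- livers, (log2 fold change -0.12, adjusted p = 0.88 by edgeR).

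Angptl8, the feeding-induced partner in the control of lipoprotein lipase, lies on chromosome 9 (chr9:21835510-21837347, plus strand), inside the span of Dock6 on the other strand, with which it shares no exon. Its CPM were 41.5, 60.7, 13.5, 91.3 and 174 in the WT group and 27.1, 29.5, 46.7, 159.8 and 14 in the mutants, by replicate number. WT mouse 5 and Thrb hep-/- mouse 4 were far above the rest of their groups, and the genotypes overlapped almost throughout. The spread covered 12.8-fold among WT and 11.4-fold among Thrb hep-/- mice, and the SD within genotypes in log2 CPM was higher than in 99.8% of all genes tested. The log2 fold change was -0.46 with a 95% interval from -2.17 to 1.26 (adjusted p = 0.86 by edgeR), so that neither a rise nor a fall of over 2-fold was outside the interval.

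Fgf21, the fasting hormone, lies on chromosome 7 (chr7:45613886-45615490, minus strand). Its counts were 48, 65, 74, 45 and 14 in the WT group and 95, 47, 169, 980 and 30 in the mutants, by replicate number, or 1.82, 2.27, 2.65, 1.76 and 0.524 and 3.30, 1.76, 5.80, 32.4 and 1.06 normalized CPM. Thrb hep-/- mouse 4 stood far above every other mouse, and Thrb hep-/- mice 2 and 5 were within the WT range. The mean was 1.80 ± 0.80 in WT and 8.87 ± 13.3 in Thrb hep-/- livers, a log2 fold change of 2.30 (SE 0.93, 95% interval 0.21 to 4.39) with an adjusted p of 0.32 by edgeR. Without Thrb hep-/- mouse 4 it was 0.72 (adjusted p = 0.65 by edgeR), and the exact permutation test over all mice gave p = 0.19.

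Inhbe encodes the subunit of activin E, which the liver secretes and which restrains fat breakdown in adipose tissue. It lies on chromosome 10 (chr10:127348857-127354411, minus strand). Its CPM were 62.3, 83.9, 63.3, 103.9 and 57.7 in the WT group and 103.7, 89.1, 88.4, 113.8 and 39.9 in the mutants, by replicate number. Thrb hep-/- mouse 5 was the lowest and mouse 4 the highest of the 10. The means of 74.2 ± 19.4 and 87.0 ± 28.4 gave a log2 fold change of 0.23 (95% interval -0.36 to 0.81, adjusted p = 0.77 by edgeR).

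**Figure D2:**
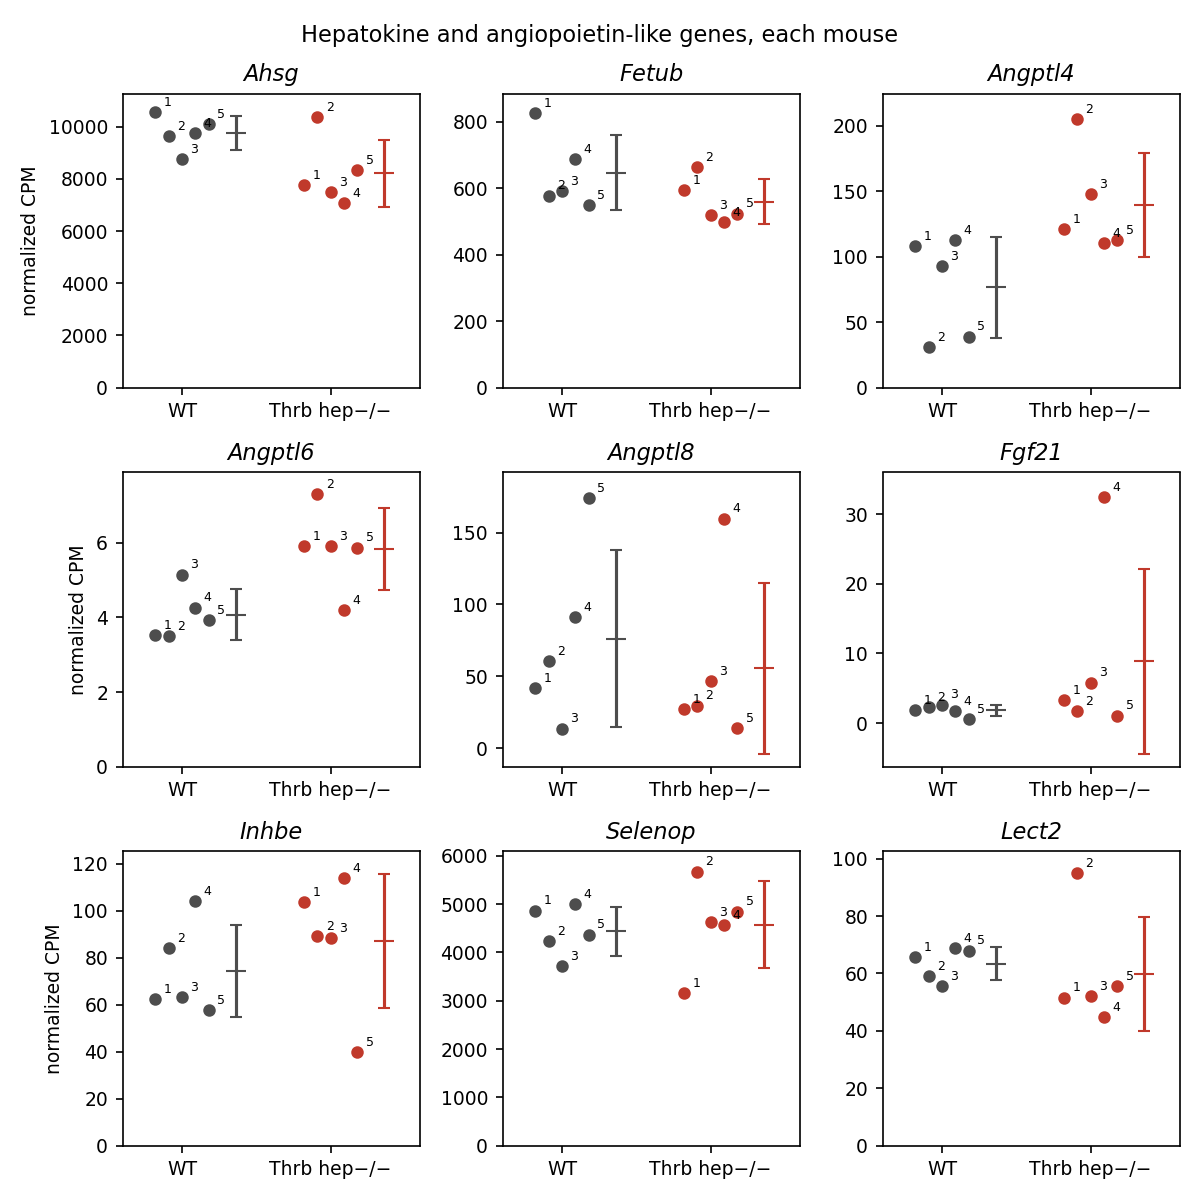
Normalized CPM (y axes, from 0 or below) of the 9 genes in each of the 5 WT (grey) and 5 Thrb hep-/- (red) livers. Points are mice, numbered by replicate, and the bar beside each group is the mean ± SD. Fgf21 and Angptl8 stand high in Thrb hep-/- mouse 4 and Lect2 in Thrb hep-/- mouse 2, and the genotypes overlap in all 9 panels.

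Both fetuins had slightly lower means in the mutants, short of the threshold. Ahsg encodes fetuin-A, an abundant plasma protein that inhibits mineralization and the insulin receptor, and Fetub its relative fetuin-B, an inhibitor needed for fertilization. Both lie in the same orientation on chromosome 16, Ahsg at chr16:22891277-22899449 and Fetub at chr16:22918334-22939778, 18884 bases apart. Ahsg CPM were 10552, 9644, 8767, 9742 and 10102 in the WT group and 7766, 10375, 7493, 7077 and 8340 in the mutants, by replicate number. All Thrb hep-/- mice but mouse 2 were below every WT mouse. The mean was 9761 ± 660 in WT and 8210 ± 1294 in Thrb hep-/- livers (log2 fold change -0.25, 95% interval -0.52 to 0.022, adjusted p = 0.41 by edgeR, exact permutation p = 0.056). Fetub means were 646 ± 113 and 559 ± 68.0 (log2 fold change -0.21, 95% interval -0.49 to 0.070, adjusted p = 0.52 by edgeR), with ranges of 548 to 826 and 498 to 662. Without WT mouse 1, its highest, the log2 fold change of Fetub was -0.10.

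Downstream of Fetub on the same chromosome lie 3 more genes of cystatin-domain plasma proteins, Hrg, Kng2 and Kng1, with gaps of 11293, 24197 and 28382 bases between neighbours. Their log2 fold changes were -0.33 for Hrg, -0.37 for Kng2 and -0.32 for Kng1, the last 2 being the kininogens that release bradykinin. None of the list of 6 cystatin-domain genes, of which 5 were tested, passed 0.15, and the smallest adjusted p was that of Kng2, at 0.158 by edgeR. All 5 genes of the stretch were fitted lower in Thrb hep-/- livers, as were 6104 of all 12234 genes tested. Thrb hep-/- mouse 2 was the highest Thrb hep-/- mouse for each. The same mouse was also the highest mutant for Angptl4, Angptl6, Selenop and Lect2, which lie on other chromosomes. Whether the genes of the stretch move together was not tested. The list median, with Cst3 and Cstb from other chromosomes, was -0.32.

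Selenop encodes the plasma carrier of selenium and lies at chr15:3268547-3280508 on the plus strand. Its CPM were 4864, 4229, 3711, 4995 and 4369 in the WT group and 3165, 5674, 4626, 4566 and 4847 in the mutants, by replicate number. The lowest and the highest of the 10 were both Thrb hep-/- mice. Means of 4434 ± 517 and 4576 ± 904 gave a log2 fold change of 0.045 (95% interval -0.28 to 0.37, adjusted p = 0.94 by edgeR). Of 18 tested genes of selenocysteine insertion and other selenoproteins none was called. The smallest p among them was that of Sepsecs, which makes the selenocysteine tRNA (log2 fold change -0.18, adjusted p = 0.41 by edgeR, unadjusted p = 0.066, so that none passed an unadjusted 0.05 either). Of the exon bases of Selenop, 15.4% are shared with Ccdc152 on the opposite strand, at 5.73 and 5.89 CPM.

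Lect2, a chemotactic protein linked to insulin resistance in muscle, lies at chr13:56542464-56548502 on the minus strand. Its CPM were 65.7, 59.1, 55.5, 68.8 and 67.9 in the WT group and 51.6, 94.9, 52.1, 44.9 and 55.6 in the mutants, by replicate number. Thrb hep-/- mouse 2 was above all others, and the other 4 Thrb hep-/- mice were at the lower edge of the WT range or below it. The log2 fold change was -0.085 (95% interval -0.47 to 0.30, adjusted p = 0.90 by edgeR). Without Thrb hep-/- mouse 2, singled out here after its values were seen, Lect2 was at -0.31 and past the threshold (adjusted p = 0.115 by edgeR). Ahsg passed it too, at -0.34 (adjusted p = 0.1498 by edgeR), beside 611 of the 12170 genes tested in that fit. No other fit with a mouse left out called either gene. Of the receptors linked to LECT2 and fetuin-A, Met, Tie1 and Insr, none was called, and Tie1 had the smallest p (log2 fold change 0.28, adjusted p = 0.24 by edgeR).

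The genes around the members were read in the same way, as counts past an adjusted p of 0.15 and a median. Of 6 tested lipases and partners, 2 rose and none fell (median 0.29). Lipc, the hepatic lipase that trims remnants and HDL, had 117 ± 12.3 CPM in WT and 155 ± 20.2 in Thrb hep-/- livers (log2 fold change 0.41, adjusted p = 0.077 by edgeR). Angptl2, a relative of the members made in stroma and fat, had 8.26 ± 1.19 and 12.6 ± 1.25 CPM (0.61, adjusted p = 0.020). For both, every Thrb hep-/- mouse was above every WT mouse. Lpl, the lipase that ANGPTL4 and ANGPTL8 restrain, had CPM of 11.2, 22.4, 13.7, 17.4 and 6.92 in the WT group and 34.9, 15.4, 22.1, 55.0 and 50.4 in the mutants, by replicate number (1.31, adjusted p = 0.18). Its 3 highest mice were Thrb hep-/- mice 1, 4 and 5, the 3 with adipocyte counts, and without them its log2 fold change was 0.40 (adjusted p = 0.73 by edgeR). Without the same libraries Lipc was at 0.52 (adjusted p = 0.18) and Angptl2 at 0.60 (adjusted p = 0.19 by edgeR). The adipocyte list of 5 genes summed to between 6.70 and 9.76 CPM in WT and between 11.2 and 69.1 CPM in Thrb hep-/- livers, and both of its genes that could be tested, Cidec and Fabp4, rose.

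Of 5 tested genes of FGF receptors and their partners, Fgfr1, the main receptor of FGF21 in fat, fell from 7.66 ± 1.59 to 4.35 ± 0.93 CPM (-0.82, adjusted p = 0.049 by edgeR), with every Thrb hep-/- mouse below every WT mouse. Klb, the gene of beta-Klotho, was at 31.7 ± 5.40 and 37.9 ± 5.75 CPM (0.26, adjusted p = 0.41). Of 10 tested genes of the activin and inhibin pathway, only Acvr1b, a type I activin receptor, was called (25.5 ± 1.10 and 20.4 ± 2.11 CPM, -0.32, adjusted p = 0.080 by edgeR), and it fell. The other activin subunit of liver, Inhbc, was highest in Thrb hep-/- mouse 4 at 105 CPM, as Inhbe was. Of 11 other hepatokine genes tested, 1 rose and 2 fell. Rbp4, the plasma carrier of retinol, rose (0.45, adjusted p = 0.105 by edgeR). Fgl1, a hepatocyte-secreted ligand of the immune receptor LAG-3, fell from 963 ± 223 to 310 ± 158 CPM (-1.64, adjusted p = 0.047), and Enho, the gene of adropin, from 43.7 ± 12.0 to 14.7 ± 8.10 CPM (-1.58, adjusted p = 0.079 by edgeR), both with no overlap.

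All 14 PPARA target genes, the class of Angptl4 and Fgf21, were fitted higher in Thrb hep-/- livers, with a median of 0.37, and 3 of them passed 0.15. These were Acot1, which splits long-chain acyl-CoA (2.05 ± 1.91 and 9.32 ± 3.35 CPM, 2.19, adjusted p = 0.083 by edgeR), the peroxisomal enzyme Ehhadh (0.78, adjusted p = 0.043) and the mitochondrial carnitine transferase Cpt2 (0.34, adjusted p = 0.105), each with no overlap between genotypes. WT mice 2 and 5, the 2 lowest in Angptl4, were also the 2 lowest in 8 of the 14 genes. Cyp4a10, a fatty acid hydroxylase, was among these, at 3.04 and 5.84 CPM. The same 2 mice were the lowest in 2 of the 10 tested amino acid and ER stress genes. The share over all genes tested was not counted, so the 8 cannot be read as particular to PPARA targets. Thrb hep-/- mouse 2, the highest in Angptl4, was the highest in 2 of the 14, and it was the lowest mutant in Ehhadh (236 CPM) and Pdk4 (1.35 CPM). Among 10 tested genes of the amino acid and ER stress responses, Herpud1 rose (0.36, adjusted p = 0.117 by edgeR) and none fell (median 0.20). Psat1, an ATF4 target of serine synthesis, was at 3.97 CPM in Thrb hep-/- mouse 4 and between 0.674 and 1.53 CPM in all other mice, with its high mouse the same as that of Fgf21. It was the only gene of the 10 tested that was highest in that mouse: Asns and Chac1 were highest in WT mouse 1, Trib3 in WT mouse 4 and Ddit3 in Thrb hep-/- mouse 1. Phgdh and Atf3, list genes that did not pass the filter, were also highest in Thrb hep-/- mouse 4. They had 2.12 and 1.66 CPM there, from 64 and 50 counts, against WT maxima of 0.465 and 1.38 CPM. Of 12 feeding and insulin responsive genes, Srebf1 fell (-0.85, adjusted p = 0.10 by edgeR). WT mouse 5, the highest in Angptl8, was also the highest in Srebf1 (764 CPM) and Thrsp (1900 CPM) and the lowest in Fgf21, whereas Thrb hep-/- mouse 4, also high in Angptl8, had 243 CPM of Thrsp and 241 of Srebf1.

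**Figure D3:**
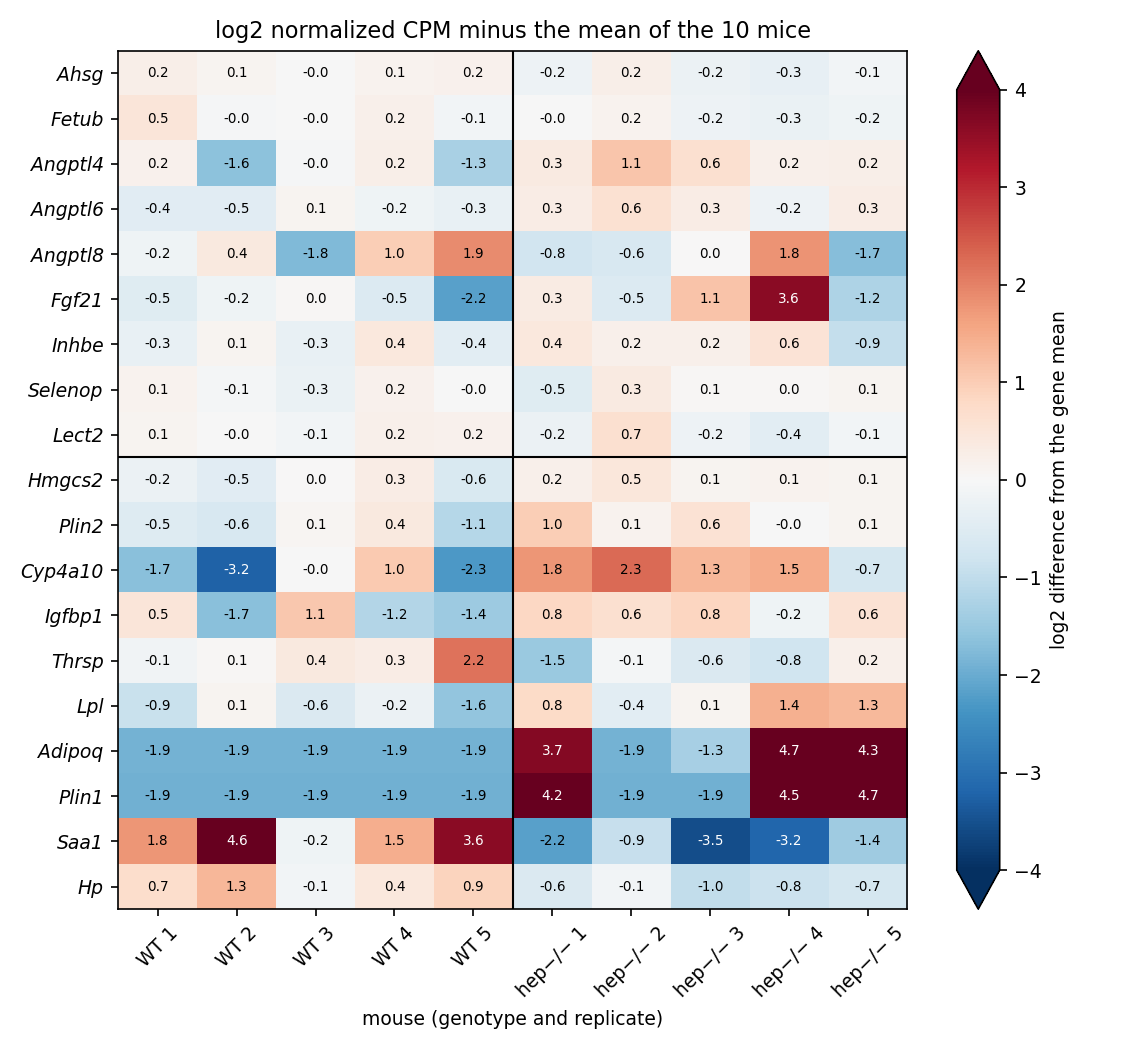
Log2 normalized CPM of each gene (rows) in each mouse (columns) minus the mean of that gene over the 10 mice (colour and numbers, prior count 2). The upper block holds the 9 genes and the lower block genes of the lists, chosen after their values were seen. Angptl4 and Cyp4a10 are lowest in WT mice 2 and 5, where Saa1 is highest, and Adipoq, Plin1 and Lpl are highest in Thrb hep-/- mice 1, 4 and 5.

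Acute-phase genes, the plasma proteins made in inflammation, moved with the genotype. Of 19 tested, 15 fell in Thrb hep-/- livers and none rose (median -1.13): Saa1, Saa2, Saa4, Orm1, Orm2, Lcn2, Hp, Hpx, Itih3, Itih4, Apcs, Serpina3n, Cp, Lbp and Mt1. Saa1 CPM were highest in WT mice 2 and 5, at 7135 and 3669, the 2 mice lowest in Angptl4, and between 25.8 and 158 in Thrb hep-/- mice. With the first principal component of these genes as a covariate the log2 fold changes of Ahsg, Fgf21 and Lect2 were 0.072, -1.03 and 0.38, each of the opposite sign, those of Angptl4, Angptl6, Fetub, Inhbe and Angptl8 were 0.40, 0.46, -0.024, 0.083 and -1.56, and 10 genes in all passed 0.15. As 15 of the 19 genes behind this component fell with the genotype, the fit cannot separate the component from the genotype. The part of the acute-phase state in the members was not tested. Without the 3 libraries that held adipocyte counts, which left 2 Thrb hep-/- mice, all called genes of these 12 lists kept their direction, and Fgl1 (-1.80, adjusted p = 0.138 by edgeR) and Saa4 (-1.33, adjusted p = 0.092) alone among them passed 0.15. Of 13 clock genes none was called, the smallest p being that of Per3 (-0.52, adjusted p = 0.31 by edgeR).

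**Figure D4:**
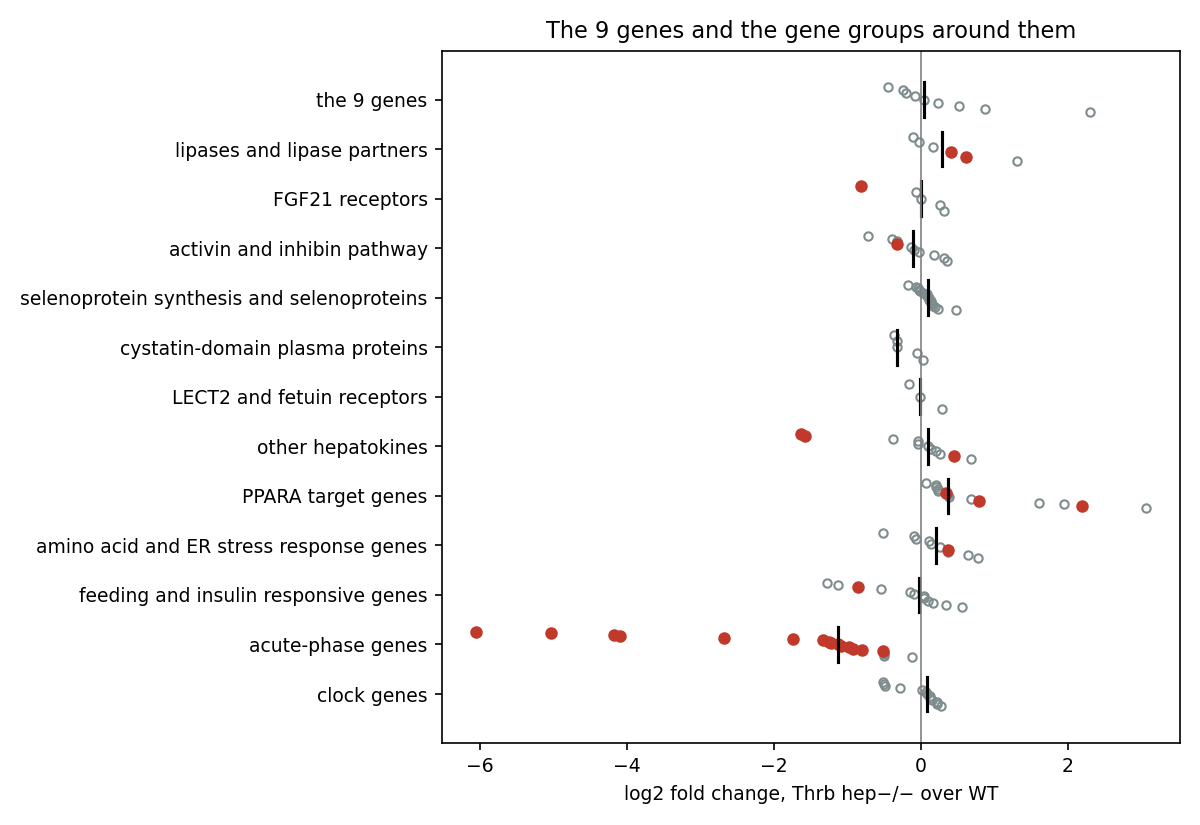
Log2 fold change, Thrb hep-/- over WT (x axis), of the 9 genes and of the tested genes of each list (rows). Filled red points passed an adjusted p of 0.15, open points did not, and black bars are medians. The 9 genes hold no red point, the PPARA targets lie wholly above 0 and the acute-phase genes wholly below it.

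The genes whose centred log2 CPM over the 10 mice came nearest to those of the 3 members with the largest fold changes were named by the root mean square of the differences. For Fgf21, whose own root mean square was 1.47, they were Ttyh1 (0.71), Zbtb7c (0.82) and Dhrs9 (0.88), all highest in Thrb hep-/- mouse 4. For Angptl4 (0.79) they were Hamp, the gene of the iron hormone hepcidin (0.32), Txnip, an inhibitor of thioredoxin (0.33), and Cyp2c37 (0.38), all lowest in WT mouse 2. For Angptl6 (0.34) they were Ramp2 (0.12), Icam2 (0.12) and Gm45871 (0.13), all highest in Thrb hep-/- mouse 2. Since all these genes were picked by likeness over the same 10 mice, a shared extreme mouse follows largely from the choice. Ramp2 and Icam2 are known as endothelial genes. Of the 6 endothelial markers none was called, and their sum was between 136 and 175 CPM in WT and between 156 and 197 CPM in Thrb hep-/- livers. They did not go 1 way, as 4 were fitted higher and 2 lower, which were Lyve1 (-0.46) and Stab2 (-0.030).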

How the data were processed

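RNA from the livers of 5 WT and 5 Thrb hep-/- mice was sequenced from stranded mRNA libraries. Per the paper's methods, the authors mapped reads on mm10 with HISAT2 2.2.1 and counted them on Ensembl release 102 genes with HTSeq 0.9.1 in union mode, without strand and at a minimum alignment quality of 10, dropping reads on several places or genes; the deposited values are raw counts. A deposited table of the authors' own edgeR comparison (log2 fold change, mean log2 CPM, an F score, p-value and FDR per gene) was not used.

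Here a gene was tested if 5 or more libraries held 1 CPM or more of it. Libraries were scaled with TMM and tested with edgeR 4.0.16 (robust quasi-likelihood F-test, R 4.3.3), adjusted by Benjamini-Hochberg over all 12234 genes. The SE was taken as the absolute log2 fold change over the square root of F, and the 95% interval from it with t quantiles. The intervals thus restate the F-test and are not a separate result. Single values were tested by exact permutation of the mice (log2 CPM, prior count 2). DESeq2 1.42.0, limma-voom (limma 3.58.1), other normalizations and filters, covariates, a replicate block and each mouse left out were alternatives. The code was tested on simulated data. Exon overlaps and lengths come from GENCODE on GRCm38, another release than the one counted on. The named genes are the 9 members, the called genes of each list (or that of smallest p), Thrb and the genes of nearest pattern; other genes were named after their values were seen. Members and lists were chosen with earlier results of these data known. Lists were described by counts and medians. The values of 1 gene of the lists are not reported here singly.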

Additional observations from a re-analysis of the deposited data

Results flagged for a closer look

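In each group of 5 mice, a mouse was singled out where its gap to the nearest other, divided by the range of the group, passed 0.71 (Dixon's 95% value). Of 20 groups checked, 4 held such a mouse, where chance would give about 1 in 20 if values were normally distributed. The check used CPM and library totals without a log, and whether that rate holds for them was not tested. Fgf21 was at 32.4 CPM in Thrb hep-/- mouse 4, against 1.06 to 5.80 CPM in the other 4. Angptl8 was at 159.8 CPM in the same mouse, against 14 to 46.7 CPM. Lect2 was at 94.9 CPM in Thrb hep-/- mouse 2, against 44.9 to 55.6 CPM. The library of that mouse had 27779196 counts, against 28441288 to 28590704 in the other Thrb hep-/- libraries.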

How the results depend on the processing

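Angptl4, Angptl6, Inhbe and Fetub kept their direction under all 20 alternatives to their edgeR fit, though Fetub was near 0 (-0.024) and Inhbe at 0.083 with the acute-phase component. Angptl6 passed 0.15 under DESeq2 (0.52), RLE normalization (0.52), no filter (0.51), filterByExpr (0.52) and limma-voom (0.49), and Fgf21 under DESeq2 (2.31), so that members called were 2, 1, 1, 1 and 1 in place of 0. Genes called, 499 at first, were 885 under DESeq2, 503 under RLE normalization and 849 under limma-voom. They were 641 of 27817 with no filter and 587 of 14198 under filterByExpr. They were 10 with the acute-phase component and 173 without the 3 adipocyte-positive libraries, where Lect2 was 0.22. With the acute-phase component Ahsg was 0.072, Fgf21 -1.03 and Lect2 0.38, each with an adjusted p of 0.999 by edgeR. The cause of these changes was not tested. The acute-phase genes moved with the genotype, so the fit with their component cannot separate it from the genotype.

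With each mouse left out in turn, genes called ranged from 222 (without Thrb hep-/- mouse 3) to 665, with 227 without WT mouse 2 and 239 without WT mouse 5, and members called from 0 to 2. The log2 fold change ranged from -0.34 to -0.20 for Ahsg, -0.27 to -0.10 for Fetub (lowest in size without WT mouse 1), 0.11 to 0.41 for Inhbe (without Thrb hep-/- mouse 4 or 5), 0.66 to 1.04 for Angptl4, 0.43 to 0.62 for Angptl6 (called at 0.62 without WT mouse 3 or Thrb hep-/- mouse 4), -1.38 to 0.11 for Angptl8 (reversed without WT mouse 5), -0.038 to 0.15 for Selenop (reversed without Thrb hep-/- mouse 2 and, at -0.013, without WT mouse 3), -0.31 to 0.0025 for Lect2 (reversed without Thrb hep-/- mouse 4) and 0.72 to 2.58 for Fgf21. The exact permutation differences ranged from -0.35 to -0.21 for Ahsg (p = 0.0079 without Thrb hep-/- mouse 2 and 0.048 without WT mouse 3), 0.74 to 1.2 for Angptl4 (p over 0.05 without Thrb hep-/- mouse 1, 2, 3 or 5), 0.42 to 0.62 for Angptl6 (p over 0.05 without WT mouse 1, 2 or 5), 0.60 to 1.81 for Fgf21 (p = 0.048 without Thrb hep-/- mouse 5), -0.055 to 0.16 for Selenop (-0.034 without WT mouse 3) and -0.31 to -0.042 for Lect2 (p = 0.024 without Thrb hep-/- mouse 2).

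Mice with the same replicate number did not deviate together (correlations -0.20 to 0.0091). These correlations cannot show whether any mice shared a litter, cage or day, which the sources used here do not give. With the replicate block 348 genes and 0 members were called, and Fgf21 was 1.39. With 14 counts of Fgf21 in its lowest library, counting error is a limit for that gene, and 5 mice per genotype leave wide intervals for Fgf21 and Angptl8.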

Other observations

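Of the other cell types that a liver sample can hold, Kupffer cell markers summed to between 83.2 and 328 CPM in WT and between 93.3 and 202 CPM in Thrb hep-/- livers, with none of 6 genes past 0.15. All 6 were fitted lower (median log2 fold change -0.72), 3 of them at an unadjusted p under 0.05 by edgeR, which were Marco (-2.0), Adgre1 (-0.83) and Cd68 (-0.59), beside 7.41% of all genes. Of 6 stellate cell markers, Des rose, and of 2 tested leukocyte markers, S100a8 fell. None of the 3 tested cholangiocyte and 3 tested erythroid markers was called, and no exocrine pancreas marker passed the filter (sums of 0.703 to 2.2 CPM in WT and 0.166 to 1.10 CPM in Thrb hep-/- livers).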
